A study of Mus musculus with 3 samples.

Results

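SB202190 is a small-molecule inhibitor of the p38 MAP kinases, and its addition to macrophages starved in a salt solution is described here. J774A.1, an established mouse macrophage-like cell line, was kept for 6 h in Earle's Balanced Salt Solution (EBSS), which holds glucose and no amino acids, either alone or with 10 µM SB202190. Cells in RPMI medium with 10% fetal bovine serum served as the fed control. The labels name the same line and the same time for all 3 conditions, and no solvent control for the inhibitor. The media given here follow the source names, as the design text can also be read as RPMI present in all media. The comparison covers every gene whose probe stood well above background in both readings of EBSS, or in both readings of EBSS with SB202190. That rule gave 11690 of the 27595 genes on the array, and 17027 of its 41174 probes.

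RNA of the 3 conditions was hybridised in pairs on 3 two-colour arrays of 1 slide, so that each condition was read in Cy3 on 1 array and in Cy5 on another. EBSS and EBSS with SB202190 shared an array, and each also shared an array with RPMI. A gene therefore has a direct ratio of SB202190 over EBSS and an indirect ratio through RPMI, and the value given is the least-squares combination of both, as a log2 ratio. Each condition is 1 sample with 2 readings, so no p-value was computed for any gene. The error beside a ratio is a technical standard error (SE) from the array loop, with a median of 0.109 over the measured genes, and it leaves out the spread between cultures. The labels name no separate cultures and do not say whether both readings of a condition used 1 RNA extract.

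The p38 kinases are switched on by stress and by microbial products through the kinases MKK3 and MKK6. Active p38 acts through effector kinases, MK2 and MK3 among them, which control the stability of mRNAs with AU-rich elements, and MSK1 and MSK2, which act on chromatin and on the factor CREB. In macrophages the pathway is best known for raising the output of TNF, chemokines and cyclooxygenase 2, and it is closed by phosphatases such as DUSP1. Pyridinyl imidazoles such as SB202190 occupy the ATP site of p38α and p38β and also bind several other kinases. A messenger RNA ratio does not measure kinase activity.

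Between 40.1% and 49.9% of spots were well above background in a channel. Over 10776 genes well above background in all conditions, the 2 readings of EBSS correlated across genes at 0.997 and those of EBSS with SB202190 at 0.995, against 0.964 to 0.970 between these conditions. Of 15 macrophage markers 14 were well above background in every condition, Mrc1 being the exception. Their summed intensity was 18.2 and 18.4 (log2) in EBSS and 18.1 in both readings with SB202190. Among markers of other cell types, Lck of T cells, S100a8 of neutrophils and Hba-a1 of red cells were well above background throughout, Zbtb46, Xcr1 and Pdgfra in some condition, and none of B cells, mast cells, epithelium or endothelium. The part of these transcripts in the results was not tested. No gene was deleted or knocked down in this design, so no transcript checks directly that the inhibitor had acted.

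With SB202190 in EBSS, 342 genes were counted as lower and 104 as higher, which is 2.93% and 0.89% of the measured genes. Every count of list members given below is to be set beside these shares. A count near them says little about the members of a list. A gene was counted at a log2 ratio of 1 or more in size (a 2-fold difference), provided that both the direct and the indirect ratio reached 0.5 in the same direction. In total, 28 of the lower genes and 1 of the higher genes passed a size of 2. Of the measured genes, 81.7% lay within 0.5 of no change. The direct and indirect ratios correlated across genes at 0.817, and genes are not independent replicates. Only 4 genes past 2-fold were left out because the paths differed.

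This balance of lower over higher genes depended on how the array signals were scaled. Genes counted as higher made up 23.3% of the counted genes after loess normalization, 50.4% with the authors' deposited log ratios (783 higher, 771 lower) and 2.29% with plain median centring (18 higher, 769 lower). Median centring moved the median of all measured genes to -0.45, against 0.00 after loess. Of the 342 lower genes, 341 were also counted in the deposited log ratios and 336 with median centring. Of the 104 higher genes these were 103 and 18.

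**Figure D1:**
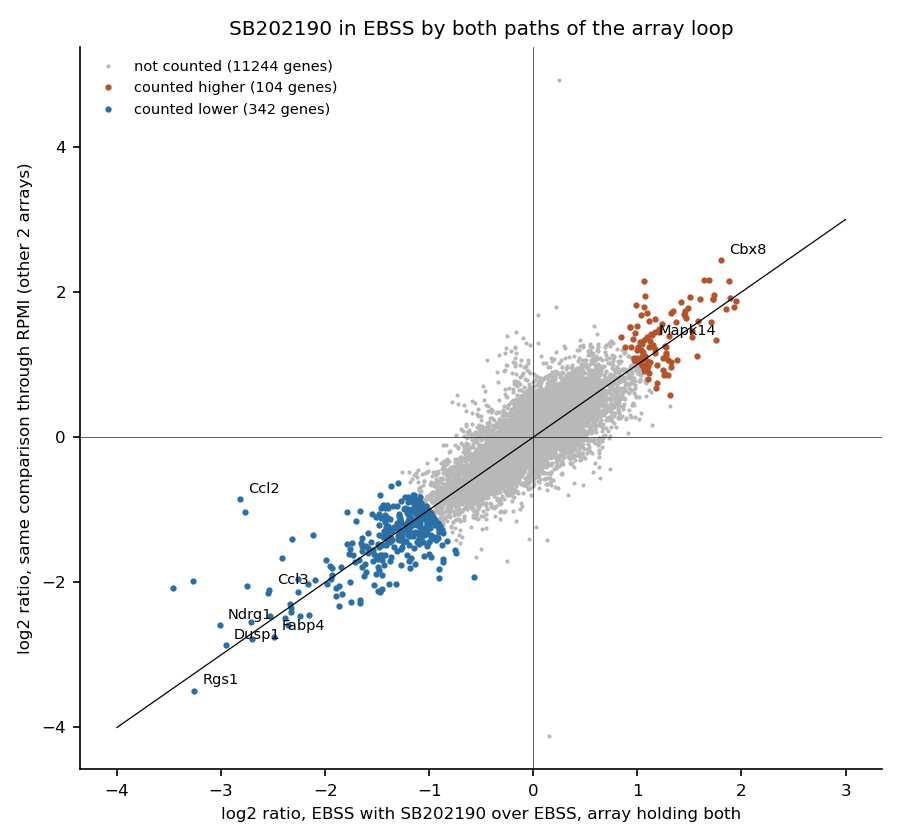
Log2 ratio of EBSS with SB202190 over EBSS for 11690 genes, from the array that held both (x axis) and through RPMI on the other 2 arrays (y axis). Points are genes, coloured where counted (342 lower, 104 higher), and the line marks equal ratios. Rgs1 and Dusp1 lie at the lower end on both axes, Cbx8 at the upper end, and Ccl2 lies off the line.

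**Figure D2:**
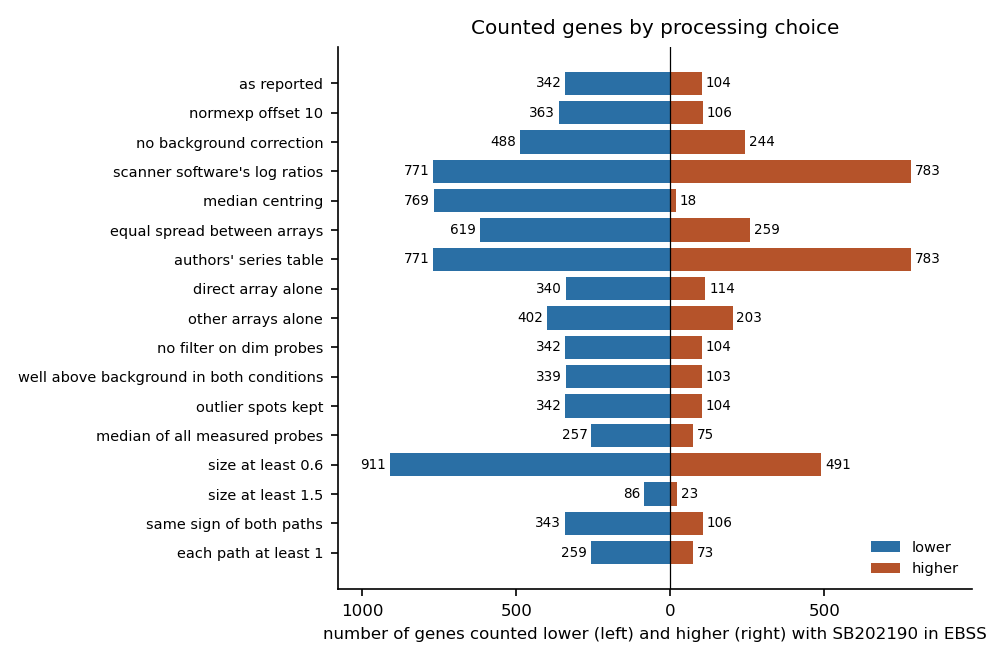
Number of genes counted lower (bars to the left) and higher (bars to the right) with SB202190 in EBSS, for the processing reported and 16 alternatives. The lower count ran from 86 to 911 and the higher count from 18 to 783.

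The gene lowest with SB202190 was Rgs1, which encodes a GTPase-activating protein that shortens signalling of chemokine receptors. Its normalized intensity (log2, given here and below with the Cy3 reading before the Cy5 reading) was 12.83 and 13.12 in EBSS, 9.86 and 9.20 in EBSS with SB202190, and 10.85 and 10.99 in RPMI. Readings with the inhibitor were thus the lowest of the 3 conditions, with no overlap. The log2 ratio over EBSS was -3.34 ± 0.11 (technical SE), a 10.1-fold difference, and the probe lies on chromosome 1 from 146007050 to 146007109 of build mm8. The exon that each probe matches was not looked up. Rgs2, a relative that acts on Gq-coupled receptors, had a ratio of -2.84 ± 0.22 by its brightest probe and -0.65 by another measured probe. The paths of the brightest probe were unequal, with a direct ratio of -3.27 and an indirect ratio of -1.98. Of 8 measured RGS genes Rgs1 and Rgs2 were counted as lower and 0 as higher, with Rgs18 at -0.87 and Rgs3 at -0.81.

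Dusp1, the phosphatase that switches off p38 and JNK, was second among genes with a symbol. It read 13.54 and 13.62 in EBSS, 10.66 and 10.53 with SB202190 and 11.73 and 11.87 in RPMI. The ratio over EBSS was -2.92 ± 0.12, or 7.60-fold, from a probe on chromosome 17 from 26233451 to 26233508 (mm8). Ndrg1, a gene induced by hypoxia and nutrient stress, read 15.62 and 15.53 in EBSS and 12.52 and 12.67 with SB202190, a ratio of -2.87 ± 0.12. In RPMI it read 10.61 and 10.97, so with the inhibitor it stood between both other conditions. EBSS is shared by the comparison with SB202190 and that with RPMI, so a high EBSS reading enters both ratios.

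The other 11 of the 15 lowest genes with a symbol have varied roles. Interferon-inducible Ifi207 had a ratio of -2.73, the lipoprotein receptor relative Lrp12 -2.66 and the fatty acid carrier Fabp4 -2.58 (other probes -2.21 and -0.19). The zinc finger gene Zfp975 lay at -2.51, the tyrosine phosphatase gene Ptpn14 at -2.43, and Zeb2, a transcription factor that maintains macrophage identity, at -2.42 (other probes -1.81 and -0.39). Plk2, a stress-inducible polo-like kinase, lay at -2.41, the chemokine gene Ccl3 at -2.40 and the transcription factor gene Klf4 at -2.35. Urokinase, Plau, was at -2.34 (other probe -0.69) and the anti-apoptotic Bcl2a1b at -2.32, as was Cxcl10, which ranked next. Bcl2a1b has near-identical copies in the mouse genome, so its value is uncertain as to the copy.

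Only Cbx8 exceeded 2 among the higher genes. It encodes a chromobox protein of Polycomb repressive complex 1, and it read 9.01 and 9.38 in EBSS, 11.18 and 11.47 with SB202190 and 9.22 and 9.20 in RPMI. Readings in EBSS and RPMI overlapped, and those with the inhibitor stood above both. The ratio was 2.02 ± 0.10 (4.05-fold; chromosome 11 from 118852429 to 118852488, mm8), and a second measured probe gave 0.31. Of the other measured Polycomb and chromobox genes (22 in all) none was counted.

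Behind Cbx8 came Angptl4, a secreted inhibitor of lipoprotein lipase, at 1.97 ± 0.11. It read 9.51 and 9.71 in EBSS, 11.58 and 11.85 with SB202190, and 12.03 and 11.84 in RPMI, so that the inhibitor and RPMI readings overlapped. Phlda3 (1.93), a p53 target that restrains AKT, followed with Zfp251 (1.90), Pstk (1.88), which makes the precursor of selenocysteinyl-tRNA, and the ubiquitin ligase subunit gene Fbxo31 (1.85, other probe 1.86). Next were Mlycd (1.83), which encodes malonyl-CoA decarboxylase, Nfkbiz (1.81), Atp23 (1.81), Snhg5 (1.79), Ccdc166 (1.79) and Mcat (1.70), the mitochondrial malonyl transferase gene. The catalytic subunit of DNA polymerase delta, Pold1, lay at 1.67 (other probe 1.56). Mrnip, at 1.65, is the least secure of the 15, as its other probes gave -0.53 and -0.05. Ccdc85b closed the group at 1.62. With median centring Pold1, at 0.96, Ccdc85b, at 0.93, and Snhg5, at 0.91, were no longer counted.

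**Figure D3:**
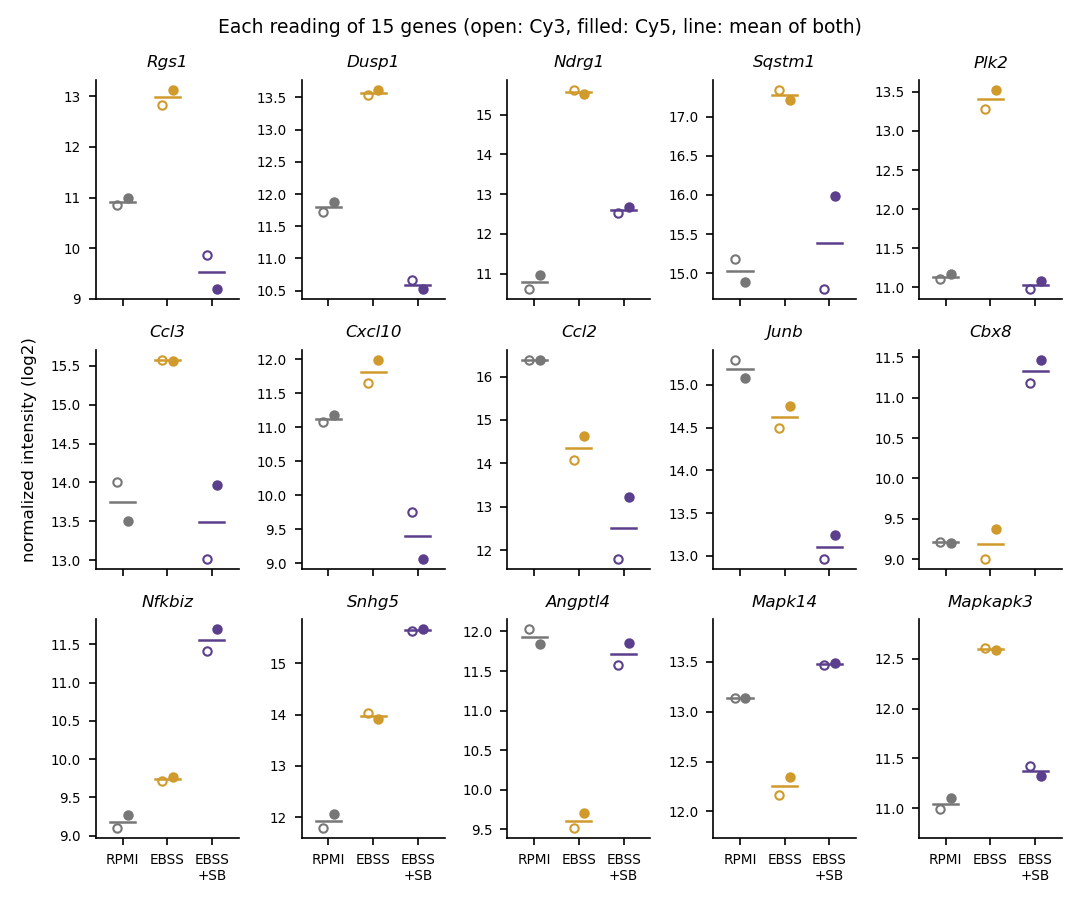
Normalized intensity (log2, separate y axis per gene) of 15 genes in RPMI, EBSS and EBSS with SB202190, with open points for Cy3, filled points for Cy5 and a line at the mean of both. With SB202190, Rgs1, Dusp1, Cxcl10, Ccl2 and Junb lay below both other conditions, Cbx8, Nfkbiz, Snhg5 and Mapk14 above both, and Plk2 and Ccl3 near RPMI.

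Sequences upstream of 4 lower genes are shown because each holds a well-known motif of a stress or starvation factor. They are RefSeq sequences of build GRCm38.p6, 100 bases each, 5′ to 3′ on the strand of the gene, with a matched motif in capitals. Dusp1, on the reverse strand at chr17:26508562-26508661, holds a cAMP response element, the CREB and ATF motif TGACGTCA. Cxcl10, on the reverse strand at chr5:92348911-92349010, holds the AP-1 motif TGANTCA. The glutathione-degrading enzyme gene Chac1, on the forward strand at chr2:119351003-119351102, holds the core of the amino acid response element, TGATGCAA, as its reverse complement. The proton pump gene Atp6v1a, on the reverse strand at chr16:44139338-44139437, holds TCACGTGA, an E-box of the kind bound by the lysosomal factors TFEB and TFE3.
Dusp1: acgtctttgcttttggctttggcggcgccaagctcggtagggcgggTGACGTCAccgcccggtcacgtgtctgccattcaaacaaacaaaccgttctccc
Cxcl10: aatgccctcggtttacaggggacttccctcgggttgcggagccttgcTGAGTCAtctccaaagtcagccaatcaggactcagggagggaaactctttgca
Chac1: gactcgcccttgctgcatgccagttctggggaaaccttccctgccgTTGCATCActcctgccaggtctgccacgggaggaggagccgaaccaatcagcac
Atp6v1a: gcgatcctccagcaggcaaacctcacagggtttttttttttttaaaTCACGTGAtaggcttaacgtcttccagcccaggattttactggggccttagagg

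Promoter windows of 250 bases before and 50 bases after the start were at hand for 8522 of the 11690 measured genes, and each motif was searched on both strands. The AP-1 motif lay in the window of 23 of 254 lower genes (9.06%), 2 of 78 higher genes (2.56%) and 6.02% of all measured genes. The cAMP response element was held by 5.91% of the lower, 5.13% of the higher and 3.81% of all measured genes. Cbx8, the gene with the highest ratio, was among its holders. TCACGTGA was held by 3.54% of the lower genes, 0 of 78 higher genes and 2.43% of all. TGATGCAA was held by 1.97% of the lower, 1.28% of the higher and 0.751% of all. It was also held by 7 of 26 members of the integrated stress response list, whether counted or not. Of those 7, only Chac1 and Nupr1 were counted, both as lower. These motifs can overlap in 1 window, and a match describes letters only.

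Of the p38 kinases, Mapk14, which encodes p38α, the main form in macrophages, was counted as higher. It read 12.17 and 12.34 in EBSS, 13.46 and 13.49 with SB202190 and 13.14 in both RPMI readings. The ratio was 1.19 ± 0.12. Its readings in EBSS and with SB202190 did not overlap, which the counting rule makes likely for any counted gene. With median centring the ratio was 0.46. Mapk11, the p38β gene, lay at 0.02 and Mapk13, the p38δ gene, at -0.06. Mapk12, the p38γ gene, was not well above background in either condition.

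Among activators of p38, the stress-inducible Gadd45g lay at 1.28 ± 0.13 and its partner kinase gene Map3k4 at 1.04 ± 0.13, with another Map3k4 probe at 0.11. Map2k6, the MKK6 gene, read 8.77 and 8.87 in EBSS and 9.59 and 10.19 with SB202190, a ratio of 0.92 that missed the required size. It was counted as higher without background correction, at 1.625, but not with median centring, at 0.79. The MKK3 gene Map2k3 lay at 0.32. In all, 3 of 18 measured kinases and activators were higher and 0 lower, against 0.89% and 2.93% of all measured genes. Their median was 0.06. With median centring none of these 3 was counted and the median was -0.21.

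Below p38, the genes of the effector kinases MK2 and MK3 differed. Mapkapk3, the MK3 gene, read 12.61 and 12.59 in EBSS, 11.42 and 11.32 with SB202190 and 10.99 and 11.10 in RPMI. Its ratio was -1.17 ± 0.12, the sole counted member among 13 measured effectors. Mapkapk2, the MK2 gene, lay at 0.27 ± 0.16, with a direct ratio of 0.52 and an indirect ratio of -0.22 that had opposite signs. Mapkapk5 lay at -0.68, and the MSK genes Rps6ka4 and Rps6ka5 at 0.30 and 0.12. None of 6 measured genes for other kinases known to bind SB202190 was counted, near the 2.93% lower and 0.89% higher of all measured genes. Ripk2 lay at 0.11, Csnk1d at 0.49, Csnk1e at -0.53, Gak at -0.13 and Nlk at 0.06.

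Dual-specificity phosphatases act on MAP kinases. Besides Dusp1, Dusp4, a nuclear phosphatase of ERK and JNK, was counted as lower. It read 14.58 and 14.69 in EBSS and 13.21 and 13.18 with SB202190, a ratio of -1.44 ± 0.16 (other probe -2.04). Dusp16, a phosphatase of JNK and p38, lay just under the size at -0.93. These 2 counted genes stood among 11 measured phosphatases whose median was -0.04.

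Among messages with AU-rich elements, which MK2 is known to stabilise, about as many members were counted as lower as were not. Of 19 measured members 10 were counted as lower and 0 as higher, against 2.93% and 0.89% of all measured genes, and the median was -1.001 against 0.00. The 10 lower members included Dusp1 and 4 chemokine genes given below. Plau read 12.47 and 12.46 in EBSS and 10.12 and 10.02 with SB202190. Its receptor gene, Plaur, read 13.56 and 13.41 in EBSS and 11.31 and 11.55 with SB202190, a ratio of -2.06 ± 0.13 that a second probe gave as -2.24. For both genes the readings with the inhibitor also lay below those in RPMI, at 11.85 and 11.95 for Plau and 13.03 and 13.06 for Plaur.

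The transcription factor genes Junb and Myc, whose messages also carry such elements, had ratios of -1.68 ± 0.16 and -1.21 ± 0.10. A second Junb probe gave -1.58, and other Myc probes gave -0.97 and -0.31. Zfp36, which encodes tristetraprolin, the protein that MK2 restrains from degrading these messages, lay at -1.001 ± 0.10 and only just passed the size. It read 10.54 and 10.50 in EBSS, 9.59 and 9.38 with SB202190 and 10.59 and 10.57 in RPMI. Tnf, the best known target, read 10.45 and 10.37 in EBSS and 9.58 and 9.27 with SB202190, and its ratio of -0.93 missed the size. Tnf was counted as lower without background correction, at -1.26, and with median centring, at -1.39. Ptgs2, the cyclooxygenase 2 gene, lay at -0.62 and Elavl1, which encodes the stabilising protein HuR, at -0.08. The Ptgs2 ratio depended on the processing. It was counted as lower without background correction, at -1.49, and with the scanner software's log ratios, at -4.78, but not with median centring. Il1b was not well above background in either condition.

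**Figure D4:**
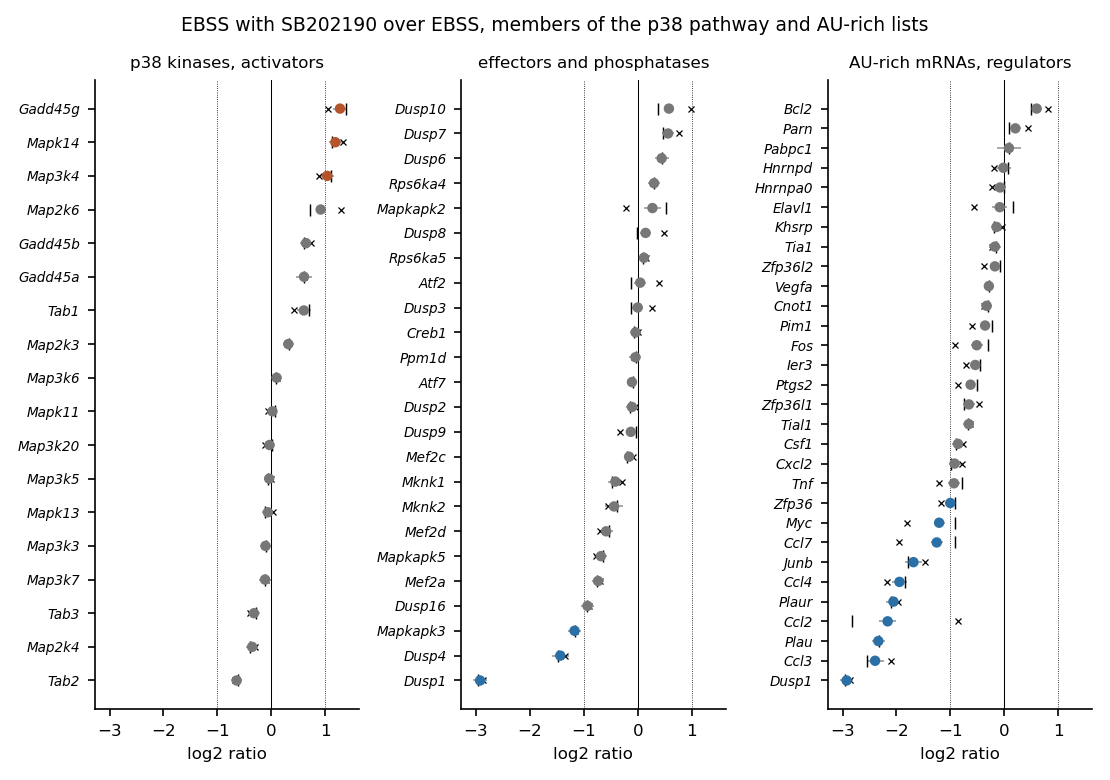
Log2 ratio of EBSS with SB202190 over EBSS for measured members of the p38 pathway, the dual-specificity phosphatases and the AU-rich lists. Points give the estimate with its technical SE as a bar, blue where counted lower and orange where counted higher, the vertical tick is the direct ratio, the cross the indirect ratio, and dotted lines mark the size of 1. Mapk14 lies at 1.19, Mapkapk3 at -1.17 and Dusp1 at -2.92, and 10 of 19 AU-rich messages lie at or below -1.

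Chemokines are the secreted proteins that draw leukocytes. Of 12 measured chemokine genes 6 were counted as lower and 0 as higher, with a median of -1.001. Ccl3 read 15.58 and 15.56 in EBSS, 13.02 and 13.97 with SB202190 and 14 and 13.50 in RPMI. Inhibitor and RPMI readings of Ccl3 overlapped. Cxcl10, a chemokine of the interferon response, read 11.64 and 11.99 in EBSS, 9.75 and 9.07 with SB202190 and 11.07 and 11.18 in RPMI. Its readings with the inhibitor lay below both other conditions.

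Ccl2, the main attractant of monocytes, read 14.09 and 14.62 in EBSS, 11.80 and 13.23 with SB202190 and 16.39 in both RPMI readings. Here the paths were unequal, with a direct ratio of -2.82 and an indirect ratio of -0.86 behind the estimate of -2.16. The order of the 3 conditions was the same in every reading. Ccl4 lay at -1.94 ± 0.14, Ccl7 at -1.25 and Ccl12 at -1.08, while Cxcl2 at -0.92 and Ccl5 at -0.90 missed the size. Several chemokine genes are close relatives, and Ccl7 and Ccl12 were low in intensity. Of 28 measured cytokine and chemokine receptor genes 0 were counted in either direction, with a median of -0.07. That is near the 2.93% lower and 0.89% higher of all measured genes.

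Among interleukins, TNF family members and growth factors 2 of 18 measured were lower. Il1rn, which encodes the antagonist of the interleukin 1 receptor, read 12.84 and 12.57 in EBSS, 10.32 and 10.45 with SB202190 and 10.27 and 10.71 in RPMI. The ratio was -2.15 ± 0.10, and another probe gave -0.55. Gdf15, a cytokine of cell stress, lay at -1.86. The inflammatory caspase gene Casp4, a sensor of intracellular endotoxin, lay at -1.99 ± 0.12 and the gasdermin gene Gsdme at -1.11, or -0.54 by the median of its probes. The list of inflammasome and caspase genes had 3 of 16 measured members lower and 0 higher. Its median was 0.09, and 9 members had a positive ratio.

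Among sensors of bacterial products, the genes of the endotoxin receptor were counted as lower. Tlr4, the endotoxin receptor gene, read 12.08 and 12.14 in EBSS and 10.16 and 10.06 with SB202190, a ratio of -1.997 ± 0.11. Ly96, which encodes the MD-2 subunit of that receptor, lay at -1.72 ± 0.12 and Cd14, its co-receptor, at -1.55 ± 0.22. With the C-type lectin gene Clec4d (-1.96) and the signalling kinase gene Irak2 (-1.31), 5 of 22 measured members of this list were lower and 0 higher, with a median of -0.34, and 7 had a positive ratio.

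Receptors of phagocytosis, by which macrophages take up bacteria and debris, were mostly not counted. Of 26 measured, 3 were counted as lower and 0 as higher, and the median was -0.12. The high-affinity IgG receptor gene Fcgr1 read 12.68 and 12.62 in EBSS, 11.28 and 11.52 with SB202190 and 12.88 and 12.78 in RPMI, a ratio of -1.31 ± 0.12. The anaphylatoxin receptor gene C3ar1 lay at -1.60 and the kinase gene Syk at -1.01. Scavenger and integrin genes lay closer to 0, with Msr1 at -0.29, Marco at -0.23 and Itgam at -0.15. Of 40 measured actin remodelling genes, Wipf1 alone was counted, a share near the 2.93% lower of all measured genes. It lay at -1.03, which the median of its probes gave as -0.64 and the direct array alone as -0.96.

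Genes that control NF-κB were found on both sides. Nfkbia, the IκBα gene, read 13.71 and 13.58 in EBSS, 15.15 in both readings with SB202190 and 14.43 and 14.11 in RPMI, a ratio of 1.42 ± 0.16. Nfkbiz, which encodes the atypical nuclear IκBζ, read 9.71 and 9.77 in EBSS, 11.41 and 11.70 with SB202190 and 9.09 and 9.27 in RPMI. Both genes read highest with SB202190. On the lower side stood the adaptor genes Traf1 at -1.59 and Tank at -1.38. The median of the 25 measured genes was 0.02, and with median centring Nfkbia fell short of the size at 0.61.

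Immediate early factors, which are induced within minutes of a stimulus, had 8 of 31 measured members lower and 0 higher, with a median of -0.44. Klf4 read 14.20 and 14.12 in EBSS, 11.79 and 11.69 with SB202190 and 11.87 and 11.98 in RPMI. Besides Klf4, Junb and Myc, the lower genes were Maff (-1.65), Klf9 (-1.49), Egr1 (-1.21), Klf6 (-1.16) and Bhlhe40 (-1.03). The sizes for Egr1 and Myc depended on the processing. With the scanner software's log ratios Egr1 lay at -4.01 and Myc at -2.96. Feedback genes of the ERK pathway held 2 lower of 12, Dusp4 and Spry2 (-1.04, median of its probes -0.52).

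Macrophage identity genes stood near 0 as a list, with a median of -0.10 over 25 measured members. Besides Zeb2, given above, the tetraspanin gene Cd53 was counted as lower at -1.35 ± 0.13. It read 13.75 and 13.49 in EBSS, 12.09 and 12.38 with SB202190 and 12.69 and 12.82 in RPMI, so its readings with the inhibitor were the lowest. The CSF1 receptor gene Csf1r lay at 0.30. Of 36 measured interferon-stimulated genes, Ifi207, Ifi204 (-2.22) and the antiviral gene Rsad2 (-1.67, median of its probes -0.82) were lower. The factor gene Irf1 was higher at 1.06, which its probes' median gave as 0.67. With median centring Irf1 lay at 0.32 and was not counted.

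**Figure D5:**
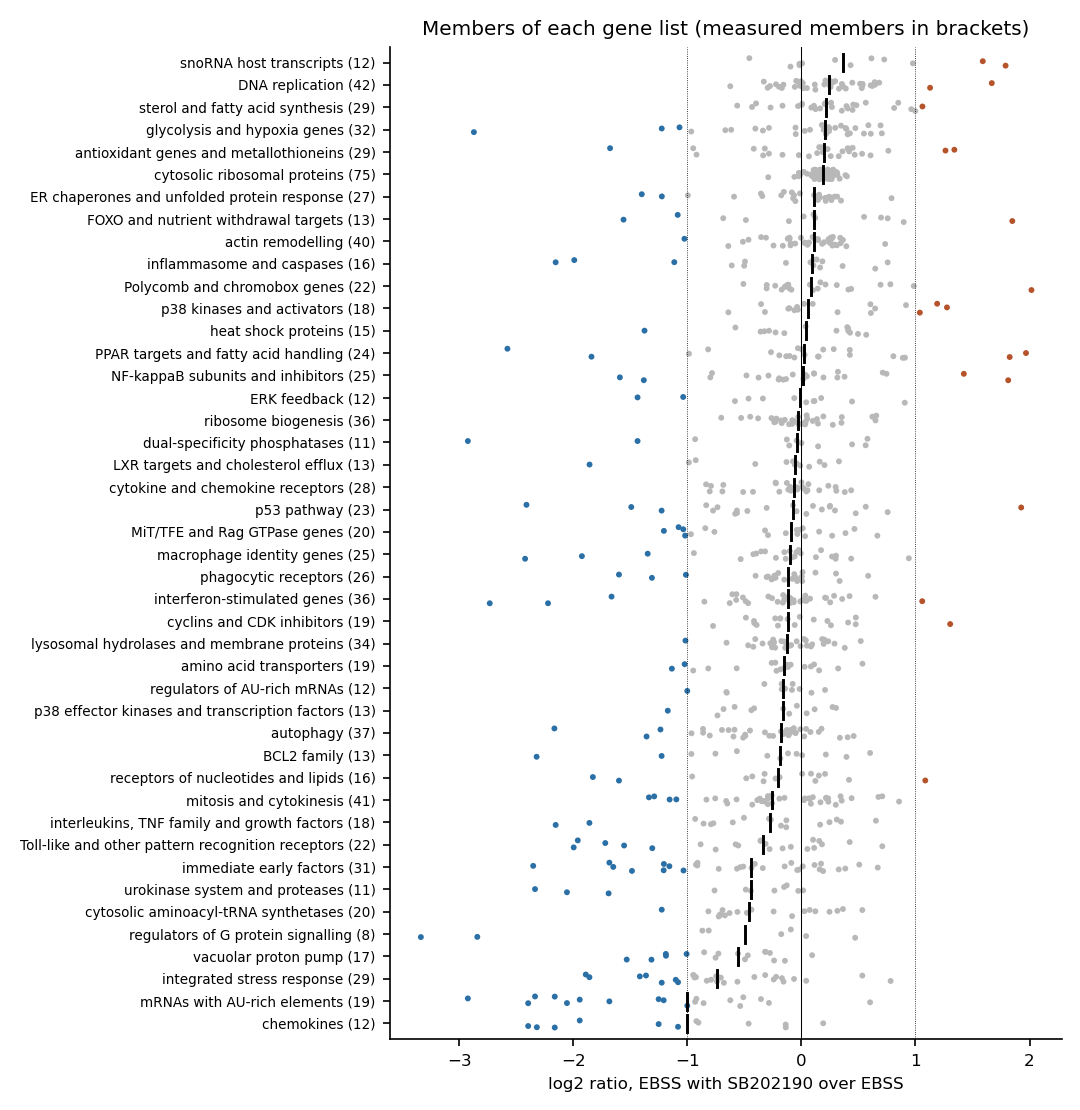
Log2 ratio of EBSS with SB202190 over EBSS for every measured member of those of the 46 gene lists that have at least 8, ordered by median (black line), blue where counted lower, orange where counted higher and grey otherwise. Groups put together after values were seen, such as the tubulins, are not drawn. Among the lists drawn, chemokines and messages with AU-rich elements lie lowest with medians of -1.001, the integrated stress response follows at -0.74, and the hosts of small nucleolar RNAs are highest at 0.36.

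Receptors for extracellular nucleotides and lipids held counted genes on both sides. The ATP-gated channel gene P2rx7 read 13.97 and 13.72 in EBSS, 11.87 and 11.75 with SB202190 and 11.41 and 11.85 in RPMI, a ratio of -1.83 ± 0.12 (other probe -0.31). P2ry6, the receptor gene for UDP, read 9.80 and 9.62 in EBSS, 10.63 and 11.47 with SB202190 and 13.93 and 13.51 in RPMI. Its ratio of 1.09, or 0.69 with median centring, left it well below the RPMI level. Of 16 measured members these 2 and C3ar1 were counted.

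The integrated stress response, the transcription programme run by ATF4 when amino acids are short, was lower in part. Of 29 measured members 7 were counted as lower and 0 as higher, 26 had a negative ratio, and the median was -0.74. Atf5 read 16.37 and 16.07 in EBSS, 14.12 and 14.64 with SB202190 and 14.48 and 14.44 in RPMI, a ratio of -1.89 ± 0.22. Chac1 (-1.42), Nupr1 (-1.36), Ddit4 (-1.23), Cebpg (-1.10, probes' median -0.91) and the cystathionine lyase gene Cth (-1.08) were also lower, with Gdf15.

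Other members of that programme were not counted, by differing margins. Ddit3, the CHOP gene, read 13.75 and 13.36 in EBSS, 13.06 and 13.33 with SB202190 and 10.02 and 10.58 in RPMI, a ratio of -0.16. Atf4 lay at -0.68 and the asparagine synthetase gene Asns at -0.83. Amino acid transporter genes had 2 lower of 19, Slc38a2 (-1.14, probes' median -0.83) and Slc6a9 (-1.02). Of 20 measured cytosolic aminoacyl-tRNA synthetase genes Aars (-1.23) was counted, and the median was -0.46.

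Of the autophagy and lysosome lists, the proton pump held the highest share of lower genes. Sqstm1, which encodes the autophagy receptor p62, read 17.34 and 17.21 in EBSS, 14.80 and 15.98 with SB202190 and 15.19 and 14.88 in RPMI. Its ratio of -2.17 ± 0.22 was the largest of 37 measured autophagy genes, 3 of which were counted, with Gabarapl1 at -1.36 and Atg13 at -1.24. The proton pump that acidifies the lysosome had 5 of 17 measured subunit genes lower and 0 higher, with a median of -0.56. All 5 belong to its cytosolic V1 sector: Atp6v1a (-1.53, second probe -1.52), Atp6v1h (-1.31), Atp6v1c1 (-1.19), Atp6v1d (-1.19) and Atp6v1b2 (-1.01). Lysosomal hydrolases and membrane proteins had 1 of 34, a share near the 2.93% of all measured genes. It was the galactosidase gene Gla, at -1.02, or -0.86 by the median of its probes. The list of MiT/TFE factors, such as TFEB, and Rag GTPase genes had 4 of 20 lower, with a median of -0.09 and 7 positive ratios. The 4 were the folliculin gene Flcn (-1.02), Rragc (-1.04), Lamtor3 (-1.08) and Akt1s1 (-1.21).

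Lipid handling genes were found on both sides. Besides Fabp4, the lipid droplet gene Plin2 was lower at -1.84 ± 0.16, while Angptl4 and Mlycd were higher, so that 24 measured genes had a median of 0.02. The cholesterol exporter gene Abcg1 read 14.07 and 13.52 in EBSS, 11.85 and 12.04 with SB202190 and 12.34 and 12.12 in RPMI, a ratio of -1.86, and was the 1 counted of 13 LXR targets. In sterol and fatty acid synthesis Dhcr7 was higher at 1.06, or 0.34 with median centring, and Fasn, at 0.998, fell just outside. That list's median was 0.21 over 29 genes, but -0.38 with median centring.

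Heme oxygenase 1, Hmox1, read 13.75 and 13.69 in EBSS, 12.01 and 12.06 with SB202190 and 13.55 in both RPMI readings. Its ratio was -1.68 ± 0.12. Metallothionein genes, which encode metal-binding proteins, were higher, with Mt1 at 1.34 and Mt2 at 1.26, although neither was counted with median centring. Of 29 measured antioxidant and metallothionein genes these 3 were counted. The protease gene Adamts1 at -1.69 joined Plau and Plaur as the 3 of 11 lower in the urokinase and protease list.

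Death and p53 genes were lower for Plk2, Mdm2 (-1.49), which encodes the ubiquitin ligase of p53, and Bbc3 (-1.23), which encodes the pro-apoptotic PUMA, and higher for Phlda3. The p53 list as a whole had a median of -0.07 over 23 genes. Of 13 measured BCL2 family genes 2 were lower, Bcl2a1b and Bbc3. The 32 measured glycolysis and hypoxia genes had Ndrg1, Ddit4 and Hk3 (-1.07) lower and a median of 0.21. The 27 measured ER genes had Atf6 (-1.40) and Dnajb9 (-1.22) lower and a median of 0.11. Of 15 measured heat shock genes Hspa9 was lower at -1.38, and the median was 0.04. The 13 measured FOXO and nutrient withdrawal targets had Hbp1 (-1.56) and Fbxo32 (-1.08) lower and Fbxo31 higher, with a median of 0.11.

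Of cell cycle genes few were counted. Replication genes had 2 of 42 measured higher, Pold1 and the thymidine kinase gene Tk1 (1.13), with a median of 0.24 that was -0.53 with median centring. Ccnd3, which encodes cyclin D3, was higher at 1.30. With that centring neither Tk1, at 0.43, nor Ccnd3, at 0.81, was counted. Mitosis genes had 4 of 41 lower and 0 higher, with a median of -0.26, or -0.69 with median centring: Ccnb1 (-1.34), Prc1 (-1.29), Plk1 (-1.16) and Aurka (-1.10). Ccnb1, the cyclin B1 gene, read 12.18 and 12.39 in EBSS, 11.01 and 10.97 with SB202190 and 12.49 and 12.46 in RPMI.

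Host transcripts of small nucleolar RNAs, long noncoding RNAs whose introns yield those RNAs, held 2 higher genes of 12 measured and 0 lower, with a median of 0.36 that was -0.20 with median centring. Snhg5 read 14.03 and 13.91 in EBSS, 15.64 and 15.66 with SB202190 and 11.78 and 12.06 in RPMI. Snhg17, at 1.59 ± 0.13, or 0.82 with median centring, read 12.53 and 12.38 in EBSS, 13.97 and 14.13 with SB202190, and 11.64 in both RPMI readings. Both transcripts read lowest in RPMI and highest in EBSS with SB202190, with no overlap. Ribosomal protein genes moved little, with 0 of 75 counted and a median of 0.19, or -0.73 with median centring.

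The size required lay among closely spaced values. Just inside it on the higher side were Irf2bp2, Fbh1, Orai3, Ppp1r10 and Ralgds, from 1.0015 to 1.0111, and just outside Fasn, Fam117b, Ap5z1, Wdr73 and Msh6, from 0.9982 to 0.9909. On the lower side Zfp36, Lcp2, Bsdc1, Snx30 and Atxn2l lay just inside, from -1.0009 to -1.0061, and Fem1b, Zfp420, Ero1a, Cyp3a41a and Plcl2 just outside, from -0.9985 to -0.9949. Of 207 counted genes with another measured probe, 16 had one of opposite sign and 106 one under 0.5 in size, so a single probe can carry a count. Single arrays mattered too. From the direct array alone Akt1s1, Atp6v1b2, Ccl7, Ccl12, Fbxo32, Gla, Hk3, Myc, Rragc, Syk, Wipf1 and Zfp36 lay between -0.98 and -0.87, short of the size. From the arrays through RPMI alone Bhlhe40, Flcn, Slc6a9, Lamtor3, Spry2 and Ccl2 lay between -0.99 and -0.86.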

How the data were processed

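Mean spot and local background intensities were deposited without normalization, per the file headers. Agilent Feature Extraction 9.5.3.1, named in the submitters' processing notes, made them. It also gave processed intensities, background- and trend-subtracted and dye-normalized, and their log10 ratio of Cy5 over Cy3, per the file headers. The authors' deposited series table holds log2 ratios of those processed intensities: all values equalled them within 0.001, with column medians of -0.0854, -0.0766 and -0.166, so scale, centring and direction are known. Deposited marks say which spots are well above background, outliers or controls.

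Here, mean intensities were corrected by the normexp model with an offset of 50 and normalized by loess within arrays, with control spots at weight 0 (limma 3.58.1, R 4.3.3). Of 45018 spots on an array, 1639 control spots and the 136 to 178 marked as outliers were not used, and no spot was saturated. Single-channel readings followed Aquantile scaling. Later steps used Python 3.11.15, numpy 2.4.6, pandas 2.3.3 and matplotlib 3.10.9. Names came from a RefSeq table of GRCm38.p6: 24490 of 41174 probes matched by accession, 6234 by symbol and 2391 by synonym, and 8059 kept the file's name. A gene is its probe of highest mean intensity. Technical SEs came from the loop sum, which is 0 without error or a dye effect of the gene, in 30 bins of intensity. Genes of the same bin share an SE, so it does not show how far the paths of a single gene differ. The estimate is the same with a dye term for each gene, and it was tested on simulated data. The arrays' number limits the precision.

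The comparison, the members and the lists were chosen with earlier results of these data known. Genes were named when they were among the 15 counted genes highest or the 15 lowest and had a symbol, when they were counted members of 46 lists or fixed p38-related genes, or when they were the 5 genes on each side of the size required each way; other members are examples chosen after their values were seen. Some genes that this rule names, and 1 sequence, are not reported here. The 16 alternatives changed background correction, normalization, path, filters, probe choice and thresholds. No p-value, set test or random list was used.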

Additional observations from a re-analysis of the deposited data

How the results depend on the processing

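No paired analysis was possible because each condition is 1 sample. Higher and lower counts were 104 and 342 as reported. They were 244 higher without background correction, 783 and 771 with the scanner software's processed signals as with the authors' series table, 18 and 769 with median centring, 259 and 619 with equal spread between arrays, and 203 higher on the arrays through RPMI alone. They were 491 and 911 at a size of 0.6 and 23 and 86 at 1.5. Under the remaining alternatives both counts stayed within 1.5 times. Of 139 counted genes at either extreme or in a list, at most 29 missed the rule under any alternative other than the size of 1.5, which 80 missed. Mrnip, at -0.0477 by the median of its probes, was the 1 that changed sign. The cause was not tested. Spots not well above background limit what low genes such as Il1b and Mapk12 can show.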

Other observations

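Gene groups outside the lists were seen among the counted genes and then filled with their known members, so they were chosen after their values were seen. Tubulin genes, which encode the subunits of microtubules, had 4 of 12 measured members higher and 0 lower, with a median of 0.67, or 0.04 with median centring. Tubb4b read 10.82 and 11.03 in EBSS, 12.29 and 12.23 with SB202190 and 12.83 and 12.70 in RPMI, a ratio of 1.26, and Tubb2a (1.18, median of its probes 0.33), Tubb5 (1.13) and Tubb6 (1.08) followed. With median centring none of the 4 was counted.

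Histone H4 genes had 5 of 6 measured members lower, H4c1, H4c6, H4f16, H4c4 and H4c14, between -1.30 and -1.27, with H4c9 at 0.19. From the arrays through RPMI alone H4c6, H4c4, H4f16 and H4c14 lay between -0.98 and -0.94, short of the size. Copies of histone H4 are nearly identical in sequence, so these values may repeat 1 signal. Of 22 other replication-dependent histone genes H1f1 was lower at -1.16. Splicing factors of nuclear speckles had 9 of 44 measured members lower and 0 higher, with a median of -0.30. They were Rsrp1 (-1.69), Srsf11 (-1.34), Cdk12 (-1.34), Sfpq (-1.30), Luc7l3 (-1.18), Son (-1.12), Arglu1 (-1.08), the cyclin gene Ccnl1 (-1.06) and the helicase gene Ddx5 (-1.05). By the median of their probes Sfpq lay at -0.58, Arglu1 at -0.74, Cdk12 at -0.76, Son at -0.78, Ddx5 at -0.87 and Ccnl1 at -0.99.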
